A study of Mus musculus with 11 samples.

Results

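A set of 7 genes of plasminogen activation and of the vessel wall's control of clotting were followed through the hearts of *Pde2A*-deficient mouse embryos. They were *Plat*, *Plau*, *Plaur*, *Thbd*, *Procr*, *F3* and *Tfpi*. All 7 were among the 55487 genes of the files and among the 24177 genes tested. RNA was sequenced from whole hearts at E14.5 of 5 *Pde2A*-/- and 6 *Pde2A*+/+ embryos, 1 library per heart. Both groups came from the line labelled B6; 129P2-Pde2A<tm1Dgen>, by crosses of *Pde2A*+/- parents, and the labels give no treatment. The gene was disrupted in the whole embryo rather than in 1 cell type, and the sex, litter and batch of single hearts were not given in the sources used here. *Pde2a*, which encodes the phosphodiesterase that the allele targets, had 0 to 2 counts per heart in both groups. The annotation places *Gm45837* over it on the same strand, and a read that lies on both genes is counted for neither, so these counts give no level of *Pde2a* and could not check the genotype labels. Cardiomyocyte markers were high in both groups, with a summed level of 32890 CPM or more in every heart (CPM, reads of a gene as a share of all reads on genes, scaled by TMM).

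Plasminogen is cleaved to plasmin, which dissolves fibrin and breaks down matrix, by the tissue-type activator encoded by *Plat* and by urokinase, encoded by *Plau*. *Plaur* encodes the receptor that holds urokinase at the cell surface. Clotting starts when blood meets tissue factor, encoded by *F3*, and the inhibitor encoded by *Tfpi*, made largely by endothelium, blocks tissue factor and factor X. Thrombomodulin (*Thbd*) and the endothelial protein C receptor (*Procr*) sit on endothelium, where they turn thrombin to the activation of protein C, an anticoagulant. Tissue factor is kept mainly in the cells around vessels, in epicardium and in heart muscle, apart from resting endothelium. The whole hearts used here hold all of these cells.

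Sequence upstream of the start site was held for 4 of the 7 members, *Plaur*, *Procr*, *F3* and *Tfpi*, as windows of 250 bases from RefSeq on GRCm38.p6. These are all the members with a window, so *Plat*, *Plau* and *Thbd* could not be compared with them. Capitals mark matches to the AP-1 motif, TGANTCA, and each sequence runs 5′ to 3′ on the gene's strand. Where the GENCODE gene begins before the RefSeq start the sequence stops there, which leaves 150 bases for *Procr* and 234 bases for *Tfpi*, while *F3* and *Plaur* are shown over all 250 bases. They lie at chr3:121723287-121723536 on the plus strand (*F3*), chr2:155750967-155751116 on the plus strand (*Procr*), chr7:24462233-24462482 on the plus strand (*Plaur*) and chr2:84476776-84477009 on the minus strand (*Tfpi*, first of its start sites).
F3: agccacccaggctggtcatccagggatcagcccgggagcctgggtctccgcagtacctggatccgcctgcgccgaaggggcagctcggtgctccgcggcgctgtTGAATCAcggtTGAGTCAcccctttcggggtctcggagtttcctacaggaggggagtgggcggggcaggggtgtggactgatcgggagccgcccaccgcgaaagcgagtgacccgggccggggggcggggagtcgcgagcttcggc
Procr: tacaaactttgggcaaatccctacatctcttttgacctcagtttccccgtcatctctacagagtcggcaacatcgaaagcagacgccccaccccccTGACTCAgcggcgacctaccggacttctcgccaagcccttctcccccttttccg
Plaur: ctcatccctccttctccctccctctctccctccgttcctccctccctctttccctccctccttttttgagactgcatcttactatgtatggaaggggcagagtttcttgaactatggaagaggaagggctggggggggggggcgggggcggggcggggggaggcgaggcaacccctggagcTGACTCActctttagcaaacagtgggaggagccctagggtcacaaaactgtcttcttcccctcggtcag
Tfpi: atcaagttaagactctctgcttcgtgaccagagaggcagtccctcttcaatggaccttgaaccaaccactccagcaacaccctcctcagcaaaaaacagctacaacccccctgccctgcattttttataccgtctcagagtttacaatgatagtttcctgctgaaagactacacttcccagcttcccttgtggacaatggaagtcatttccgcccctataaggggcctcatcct

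The *F3* window held 2 matches to AP-1, at bases 146 to 140 and 135 to 129 before the start, spelled TGAATCA and TGAGTCA. Here and below, positions are counted back from the RefSeq start, which is the end of the whole window and not of a shortened sequence. *Procr* held 1 match, at bases 154 to 148, and *Plaur* held 1, at bases 69 to 63, both spelled TGACTCA. Neither of the *Tfpi* windows held one. Among all 32851 windows of the same length, 6.75% held at least 1 match. The cAMP response element, TGACGTCA, was found in 0 of the 5 member windows and in 1.55% of all windows, and its core, TGACG, in the *Procr* window alone and in 17.8% of all. The hypoxia response core, ACGTG, was found in 0 of the 5 and in 16.6% of all windows. The GC box, GGGCGG, was matched 3 times in *F3*, 3 times in *Plaur* with an overlap of matches, and 1 time in each *Tfpi* window, against 32.7% of all windows with a match. CACCC, the core read by KLF factors, was matched 3 times in *F3*, where 1 match overlaps an AP-1 match, and 1 time in *Procr* and in each *Tfpi* window, against 52.0% of all windows. Both strands were searched for each motif, and a match is a description of the letters only.

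The hearts differed in depth by little, with 35865537 to 42835382 reads on the sense strand of genes. Hepatocyte transcripts set 4 hearts apart, *Pde2A*-/- replicate D and *Pde2A*+/+ replicates 11, H and E, in which *Alb* stood at 11.6 to 46.6 CPM against at most 0.678 CPM in the other 7 hearts. The members' results are therefore also given without these 4 hearts, a setting chosen after the data had been seen that leaves 4 *Pde2A*-/- against 3 *Pde2A*+/+ hearts. Genes were called where the quasi-likelihood test of edgeR gave an adjusted p under 0.05, after Benjamini-Hochberg adjustment over all 24177 genes. Of all genes tested, 14.6% were called, 8.93% as higher in *Pde2A*-/- hearts and 5.67% as lower, and their median log2 fold change was −0.023. Of the 14024 genes whose mean over the hearts reached 1 CPM, as that of every member did, 13.7% were called higher and 9.03% lower. Of the 7 members, 3 were called higher (*F3*, *Tfpi* and *Procr*) and 0 lower by edgeR. At an unadjusted p under 0.05 in the same test these 3 and *Plaur* were higher and 0 were lower. The share of all genes under that threshold is not given, so this count cannot be set against it. None of the members had both a call and a fold of at least 2, as 2.59% of all genes did, and 0 had all *Pde2A*-/- hearts below all *Pde2A*+/+ hearts, as 3.11% did. In these bulk hearts, fewer cells of a type and less RNA per cell cannot be told apart.

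*F3*, tissue factor, had the largest fold change of the 7. In *Pde2A*+/+ replicates 7, 11, 6, 8, H and E it stood at 6.05, 6.14, 4.85, 6.53, 5.77 and 6.58 CPM. In *Pde2A*-/- replicates A, B, 14, D and 15 it stood at 7.70, 7.60, 9.21, 15.2 and 11.8 CPM. The groups did not overlap, all 5 *Pde2A*-/- hearts lying above all *Pde2A*+/+ hearts, which 5.38% of all genes tested also did in this direction. The spread was wide among the *Pde2A*-/- hearts, with replicate D far above replicates A and B, and narrow among the *Pde2A*+/+ hearts. *F3* was 1.72-fold higher, a log2 fold change of 0.78 with a standard error of 0.168 and a 95% interval of 0.418 to 1.14, and an adjusted p of 0.0101. It kept this call without each heart in turn, between 0.601 without *Pde2A*-/- replicate D and 0.873. Without the 4 hearts with hepatocyte transcripts the log2 fold change was 0.642 and the adjusted p 0.12, so the call was lost. *F3* (ENSMUSG00000028128) lies on chromosome 3 from 121723537 to 121735048, on the plus strand of GRCm38.

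*Tfpi*, the inhibitor of tissue factor, rose as well. It stood at 98.4, 103.7, 113.5, 114.8, 109.3 and 111.7 CPM in *Pde2A*+/+ replicates 7, 11, 6, 8, H and E. In *Pde2A*-/- replicates A, B, 14, D and 15 it stood at 125.6, 133.3, 139.9, 149.8 and 156.6 CPM. Every *Pde2A*-/- heart was above every *Pde2A*+/+ heart, with little spread in either group. The gene was 1.30-fold higher, with a log2 fold change of 0.38, a standard error of 0.062, a 95% interval of 0.244 to 0.512 and an adjusted p of 0.00196. The call held without each heart in turn, between 0.341 and 0.421, and without the 4 hearts with hepatocyte transcripts the value was 0.35 with an adjusted p of 0.103. *Tfpi* (ENSMUSG00000027082) lies on chromosome 2 from 84432855 to 84476775, on the minus strand. *F3* and *Tfpi* were thus the members whose groups did not overlap.

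*Procr*, the endothelial protein C receptor, was called higher on a narrow margin. Its levels were 5.74, 7.94, 6.47, 8.49, 5.12 and 6.36 CPM in *Pde2A*+/+ replicates 7, 11, 6, 8, H and E. They were 9.87, 7.67, 9.46, 8.27 and 9.50 CPM in *Pde2A*-/- replicates A, B, 14, D and 15. The groups overlapped, since *Pde2A*-/- replicates B and D lay below *Pde2A*+/+ replicate 8, and the other 3 *Pde2A*-/- hearts lay above all *Pde2A*+/+ hearts. The fold was 1.34, the log2 fold change 0.42 with a standard error of 0.129 and a 95% interval of 0.143 to 0.70, and the adjusted p 0.0447. The call was lost when any 1 of 8 hearts was left out, *Pde2A*-/- replicates A, 14, D and 15 and *Pde2A*+/+ replicates 7, 6, H and E, with values from 0.358 to 0.45, and held without each of the other 3, up to 0.506. It was also lost without the 4 hearts with hepatocyte transcripts, at 0.402 and an adjusted p of 0.209. *Procr* (ENSMUSG00000027611) lies on chromosome 2 from 155751117 to 155755471, on the plus strand.

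*Thbd*, thrombomodulin, which acts beside *Procr* in the activation of protein C, did not pass the test. It stood at 32.3, 38.4, 29.8, 33.6, 27.2 and 32.6 CPM in *Pde2A*+/+ replicates 7, 11, 6, 8, H and E, and at 33.7, 33.8, 34.0, 32.5 and 35.5 CPM in *Pde2A*-/- replicates A, B, 14, D and 15. All *Pde2A*-/- hearts lay inside the range of the *Pde2A*+/+ hearts, whose spread was the wider, with a coefficient of variation of 11.6% against 3.08%. The log2 fold change was 0.07 with a standard error of 0.073, a 95% interval of −0.089 to 0.227 and an adjusted p of 0.577 by edgeR's quasi-likelihood test. *Thbd* (ENSMUSG00000074743) lies on chromosome 2 from 148404466 to 148408188, on the minus strand.

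*Plat*, the tissue-type plasminogen activator, was the second most abundant member and also did not pass the test. Its levels were 71.0, 73.3, 71.2, 90.2, 69.5 and 74.5 CPM in *Pde2A*+/+ replicates 7, 11, 6, 8, H and E. They were 68.6, 69.0, 77.6, 75.5 and 77.2 CPM in *Pde2A*-/- replicates A, B, 14, D and 15. *Pde2A*+/+ replicate 8 was the highest of all hearts, *Pde2A*-/- replicates A and B lay just below the lowest *Pde2A*+/+ heart, and the other 3 inside the *Pde2A*+/+ range. The log2 fold change was −0.03, with a 95% interval of −0.175 to 0.121 and an adjusted p of 0.843. Its sign turned without *Pde2A*+/+ replicate 8, at 0.038, and without *Pde2A*-/- replicate A, at 0.002. *Plat* (ENSMUSG00000031538) lies on chromosome 8 from 22757727 to 22782844, on the plus strand.

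*Plau*, urokinase, stood at 15.1, 12.6, 14.2, 13.98, 16.9 and 13.2 CPM in *Pde2A*+/+ replicates 7, 11, 6, 8, H and E. In *Pde2A*-/- replicates A, B, 14, D and 15 it stood at 11.5, 10.6, 14.6, 12.9 and 13.1 CPM, with A and B below all *Pde2A*+/+ hearts and the others inside their range. The log2 fold change was −0.19 with a standard error of 0.094, a 95% interval of −0.395 to 0.012 and an adjusted p of 0.19, so a difference was not called. *Plau* (ENSMUSG00000021822) lies on chromosome 14 from 20836660 to 20843385, on the plus strand.

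*Plaur*, the urokinase receptor, had levels of 6.81, 6.01, 6.85, 9.04, 6.29 and 5.93 CPM in *Pde2A*+/+ replicates 7, 11, 6, 8, H and E. The levels were 7.46, 7.53, 10.9, 7.72 and 10.7 CPM in *Pde2A*-/- replicates A, B, 14, D and 15. Replicates 14 and 15 lay above all *Pde2A*+/+ hearts, and the other 3 lay above all of them but replicate 8. The log2 fold change was 0.38 with a standard error of 0.141, a 95% interval of 0.074 to 0.683 and an adjusted p of 0.0881 by edgeR. The call depended on the setting: without *Pde2A*+/+ replicate 8 the gene passed, at 0.481 with an adjusted p of 0.0372, as it did by DESeq2, with an adjusted p of 0.0405. Without the 4 hearts with hepatocyte transcripts the value was 0.273, with an adjusted p of 0.439. *Plaur* (ENSMUSG00000046223) lies on chromosome 7 from 24462484 to 24475968, on the plus strand, 77.0 Mb from *Pde2a*.

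**Figure D1:**
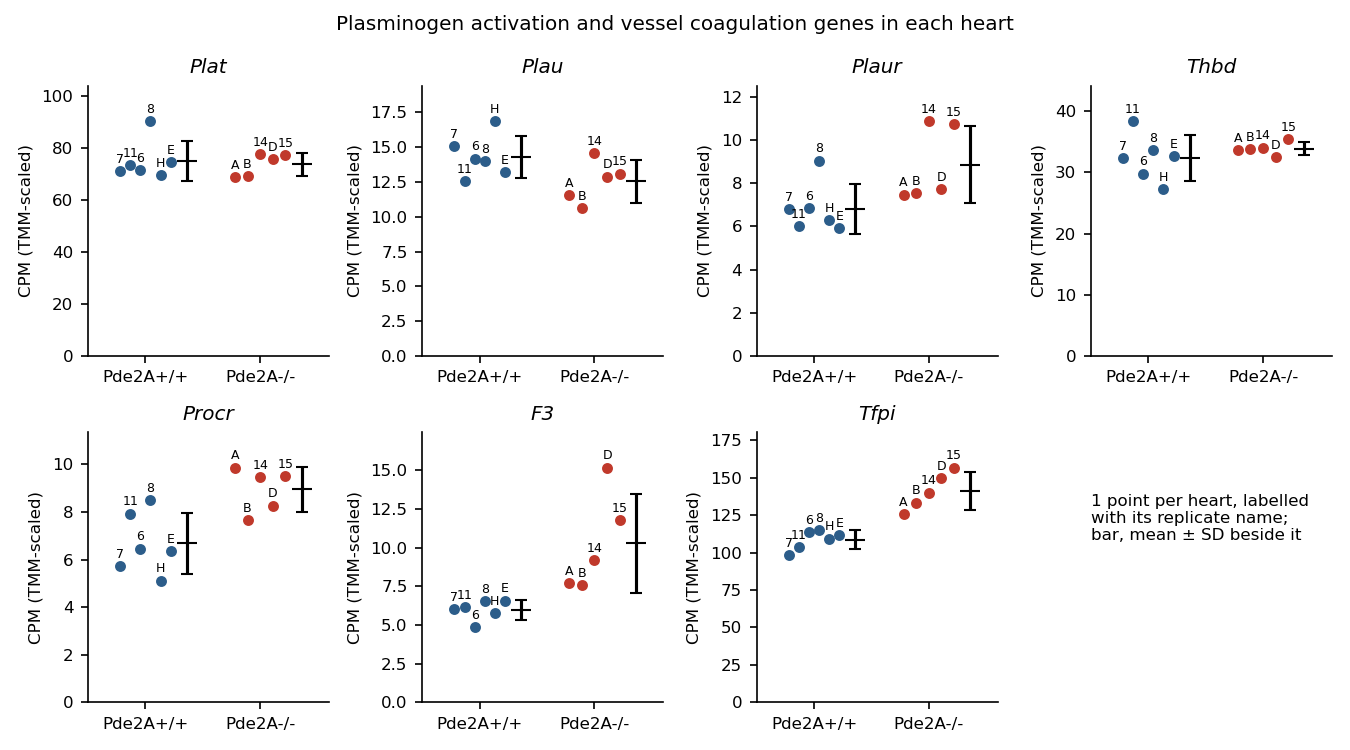
Level of each of the 7 genes in each heart, in CPM scaled by TMM on an axis from 0, with 1 point per heart labelled by its replicate name and the mean ± SD beside each group. The *Pde2A*-/- hearts lie above all *Pde2A*+/+ hearts for *F3* and *Tfpi*, and the groups overlap for the other 5 genes.

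Per kilobase of exon, *Tfpi* was the most abundant member in both genotypes, at 19.9 ± 1.16 CPM per kb (SD, n = 6) in *Pde2A*+/+ and 25.8 ± 2.28 (SD, n = 5) in *Pde2A*-/- hearts. *Plat* followed at 12.0 ± 1.23 and 11.8 ± 0.709 CPM per kb, then *Thbd* at 8.68 ± 1.01 and 9.11 ± 0.281, and *Plau* at 6.05 ± 0.643 and 5.30 ± 0.646. The ranges over hearts of these 4 genes did not overlap between neighbours in either genotype. *Procr* stood at 3.29 ± 0.636 CPM per kb in *Pde2A*+/+ and 4.41 ± 0.46 in *Pde2A*-/- hearts, *Plaur* at 2.61 ± 0.441 and 3.39 ± 0.679, and *F3* at 2.37 ± 0.251 and 4.07 ± 1.27. These 3 overlapped with their neighbours in both genotypes, and in *Pde2A*-/- hearts *Plau* overlapped *Procr* too. *F3* was last in the order in *Pde2A*+/+ hearts and last but 1 in *Pde2A*-/- hearts, where its range overlapped that of *Plaur*.

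Ratios within a heart set each enzyme, receptor or initiator beside the protein it acts with, and do not depend on library scaling. A two-sided permutation test, exact over the 462 divisions of the hearts into groups of 5 and 6, was used, in which no p can be smaller than 0.00216, with adjustment over 4 ratios, of which 3 are given. The log2 ratio of *Plau* to *Plaur* fell from 1.07 ± 0.257 (SD, n = 6) in *Pde2A*+/+ to 0.511 ± 0.176 (SD, n = 5) in *Pde2A*-/- hearts, a difference of −0.561 (exact p = 0.00649, adjusted p = 0.0202). All *Pde2A*-/- hearts lay between 0.283 and 0.735, and of the *Pde2A*+/+ hearts only replicate 8, at 0.626, fell in that range.

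The log2 ratio of *Thbd* to *Procr* fell from 2.28 ± 0.178 (SD, n = 6) to 1.92 ± 0.14 (SD, n = 5), a difference of −0.358 (exact p = 0.0108, adjusted p = 0.0202). The ranges met at *Pde2A*+/+ replicate 8, at 1.98, and *Pde2A*-/- replicate B, at 2.13. The log2 ratio of *F3* to *Tfpi* rose from −4.17 ± 0.191 (SD, n = 6) to −3.82 ± 0.325 (SD, n = 5), a difference of 0.357 (exact p = 0.026, adjusted p = 0.026). Here the groups overlapped, with *Pde2A*-/- replicates A and B at −4.02 and −4.12 inside the *Pde2A*+/+ range of −4.53 to −4.01. This ratio missed an exact p of 0.05 when 1 of 5 hearts was left out, *Pde2A*-/- replicates D (0.227) and 15 (0.334) and *Pde2A*+/+ replicates 6 (0.285), 8 (0.367) and H (0.345). Without the 4 hearts with hepatocyte transcripts the smallest p that the design allows is 0.0286, and of these 3 ratios only *Plau* to *Plaur* reached it, at −0.482.

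**Figure D2:**
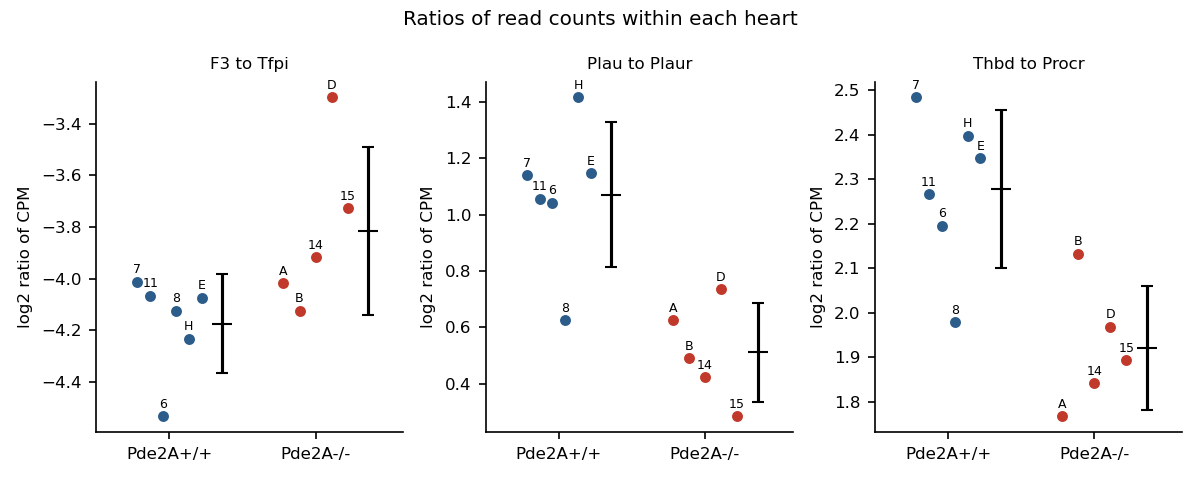
Log2 ratio of CPM between paired genes within each heart, with 1 point per heart labelled by its replicate name and the mean ± SD beside each group. On the log2 scale, *Plau* to *Plaur* and *Thbd* to *Procr* differ by −0.561 and −0.358 in *Pde2A*-/- hearts, and *F3* to *Tfpi* is higher by 0.357.

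The other genes of the pathway were read from 5 lists of 48 genes, of which 45 were tested. By edgeR's quasi-likelihood test 11 were called higher and 0 lower, against the background shares above, and the median log2 fold change was 0.009. Genes without a call at an adjusted p under 0.05 numbered 34. *F2rl3* was the nearest to a lower call, at −0.728 with an adjusted p of 0.0502, and it passed in 10 of its 21 alternatives.

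Among plasminogen, its inhibitors and its binding proteins, 2 of 13 genes were called higher and 0 lower, with a median of −0.136. *Serpinb2*, a serpin that inhibits urokinase, rose from at most 0.11 CPM to between 0.124 and 0.313 CPM, a log2 fold change of 2.08 on few counts, with an adjusted p of 0.0146. The cell surface binding proteins *Anxa2* (0.16, adjusted p = 0.0705) and *S100a10* (0.05, adjusted p = 0.665), the protease nexin *Serpine2* (0.15, adjusted p = 0.134) and the receptor for clearance *Lrp1* (0.18, adjusted p = 0.375) did not pass. *Anxa2* passed with DESeq2 (adjusted p = 0.0295), with the naming style of the replicates as a covariate (0.0393) and without *Pde2A*-/- replicate A (0.00402), and *Serpine2* passed without *Pde2A*+/+ replicate 8 (0.023).

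Of the anticoagulant proteins 2 of 9 tested were called higher and 0 lower. *Pros1*, protein S, the cofactor of protein C, stood at 24.1 to 28.5 CPM in *Pde2A*+/+ and 31.0 to 34.5 CPM in *Pde2A*-/- hearts, a log2 fold change of 0.30 with an adjusted p of 0.00367. *Entpd1*, which removes the platelet activator ADP, stood at 26.0 to 30.5 CPM against 31.8 to 34.2 CPM, a log2 fold change of 0.28 with an adjusted p of 0.0044. Neither gene overlapped between the groups. The median of this list was −0.539, and its lowest values were those of genes of low level that the liver makes, described below.

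Of the coagulation factors and fibrinogen 4 of 13 tested were called higher and 0 lower, with a median of 0.009. *F10*, factor X, rose from between 1.10 and 1.59 CPM to between 2.19 and 2.93 CPM, by 1.02 on the log2 scale with an adjusted p of 0.000481. *F13a1*, the fibrin crosslinking subunit of factor XIII, which macrophages and megakaryocytes also make, rose from between 11.8 and 25.5 CPM to between 32.2 and 54.9 CPM, by 1.30 with an adjusted p of 0.000696. *F5*, factor V, was higher by 0.99 (adjusted p = 0.0191), and *Vwf*, von Willebrand factor, made by endothelium and megakaryocytes, by 0.80 (adjusted p = 0.00546), both with overlap of the groups. *F8*, factor VIII, was at 0.01 with an adjusted p of 0.976.

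Of the 4 protease-activated receptors, which thrombin and related proteases cleave, 2 were called higher and 0 lower. *F2r*, the main thrombin receptor, stood at 182.2, 180.9, 198.8, 215.7, 186.9 and 190.9 CPM in *Pde2A*+/+ replicates 7, 11, 6, 8, H and E, and at 279.4, 286.3, 274.0, 294.7 and 279.2 CPM in *Pde2A*-/- replicates A, B, 14, D and 15. The groups lay far apart, with a log2 fold change of 0.55, a standard error of 0.05 and an adjusted p of 1.61e-05. *F2rl2* rose from at most 0.408 CPM to at least 0.666 CPM, by 2.12 with an adjusted p of 0.000561. *F2rl1* was at 0.74 with an adjusted p of 0.0907, and passed with DESeq2 (0.0373) and without *Pde2A*-/- replicate A (0.0401). Of the 6 vessel wall regulators tested, *Ptgis*, prostacyclin synthase, was called higher, at 0.49 with an adjusted p of 0.00947. The flow-responsive factors *Klf2* (−0.28, adjusted p = 0.199) and *Klf4* (0.28, adjusted p = 0.197) and the nitric oxide synthase *Nos3* (−0.03, adjusted p = 0.84) were not called, although *Klf2* passed without *Pde2A*-/- replicate A (−0.393, adjusted p = 0.045). Without the 4 hearts with hepatocyte transcripts, 5 pathway genes were called higher (*F5*, *F10*, *F13a1*, *F2r* and *F2rl2*) and 0 lower. The calls of *Pros1* (adjusted p = 0.0637), *Vwf* (0.083), *Serpinb2* (0.122), *Entpd1* (0.135) and *Ptgis* (0.195) were lost there, each with its direction kept.

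**Figure D3:**
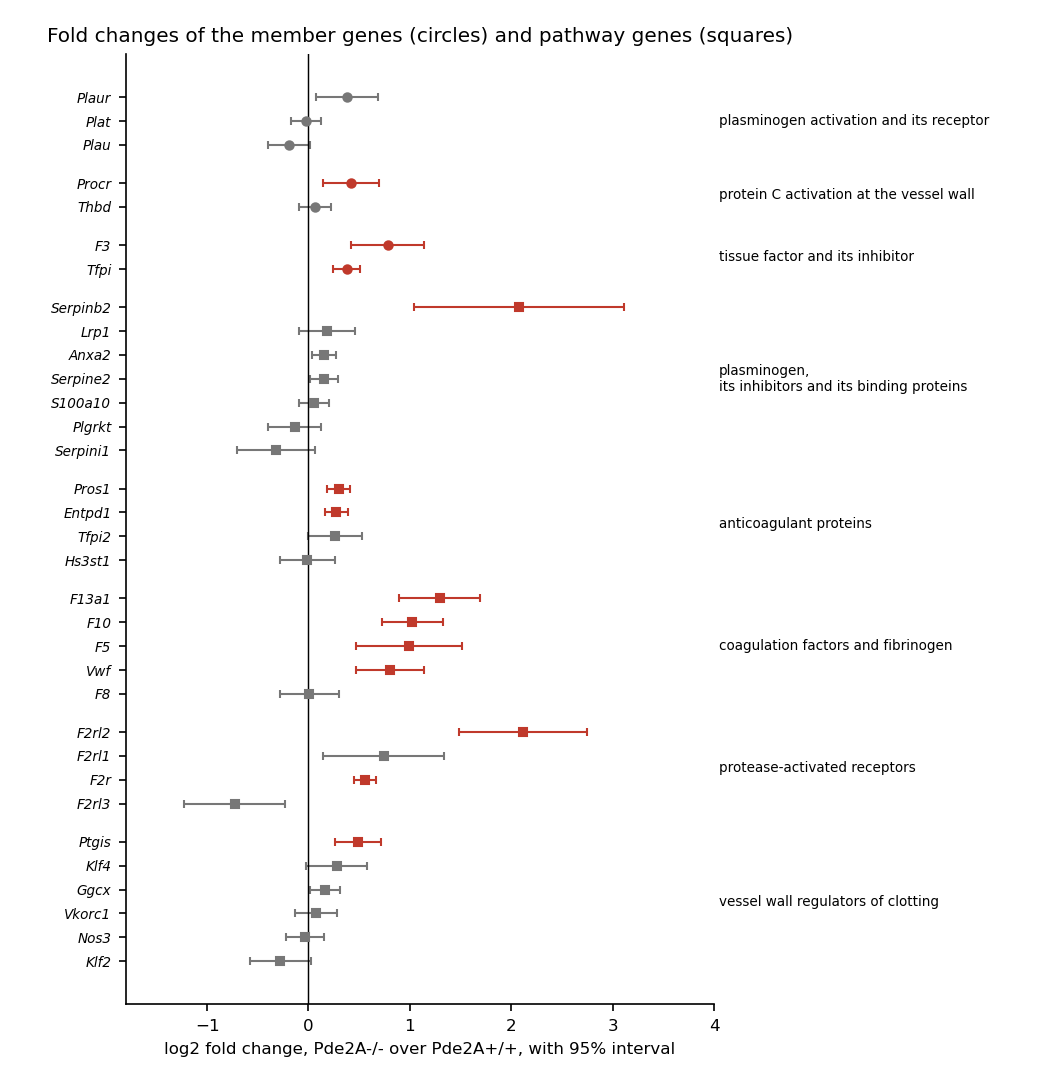
Log2 fold change of *Pde2A*-/- over *Pde2A*+/+ hearts with its 95% interval for the 7 genes (circles) and for the reported pathway genes that averaged 1 CPM or more or were called (squares), grouped by role, with genes called higher in red. *F3*, *Tfpi* and *Procr* are in red among the circles, and 10 pathway genes among the squares, from *Entpd1* at 0.28 to *F2rl2* at 2.12.

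From the pathway lists 17 genes that the liver makes were picked after the values were seen, such as plasminogen, prothrombin and the fibrinogen chains. Of these, 0 were called by edgeR in either direction. The pick is not complete, and it left out *F5*, *F10* and *Pros1*, which were called higher. The summed level of the 17 was 5.69 to 18.2 CPM in the 4 hearts with hepatocyte transcripts and 0.658 to 1.41 CPM in the other 7. Of the 17 genes, 11 were higher in each of those 4 hearts than in any other heart, among them *Plg*, *F2*, *Fga*, *Fgb* and *Fgg*. Of the 4 hearts 1 was *Pde2A*-/- and 3 were *Pde2A*+/+. None of the 7 members was higher in each of those 4 hearts than in every other heart. For *F3* and *Tfpi* this could not come out otherwise, since every *Pde2A*-/- heart lay above every *Pde2A*+/+ heart. The part of liver tissue in the members' levels was not tested. *F3* was at its highest, 15.2 CPM, in *Pde2A*-/- replicate D.

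**Figure D4:**
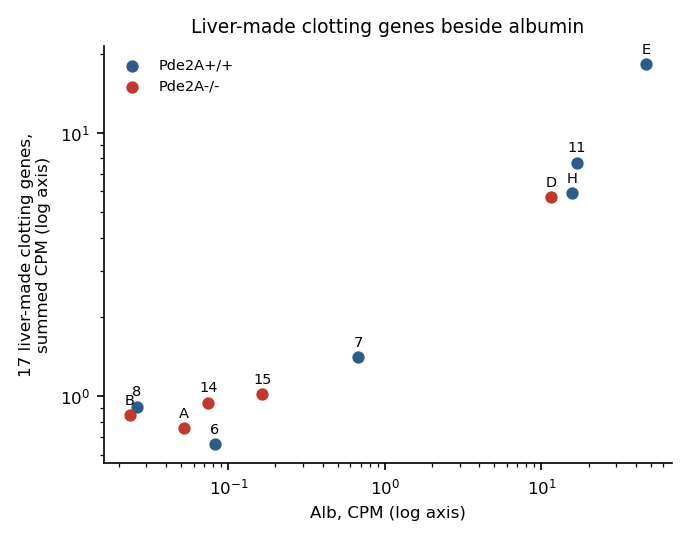
Summed level of the 17 liver-made clotting genes against *Alb*, the albumin gene, in each heart, both in CPM on log axes, with 1 point per heart labelled by its replicate name. *Pde2A*-/- replicate D and *Pde2A*+/+ replicates 11, H and E lie apart at 5.69 to 18.2 CPM, and the other 7 hearts at 1.41 CPM or less.

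Markers of other cells and states differed between the genotypes in some lists and not in others. By edgeR, 4 of 12 endothelial markers were called higher and 1 lower, with a median of 0.184 and a summed level of 1674 to 1921 CPM in *Pde2A*-/- against 1363 to 1632 CPM in *Pde2A*+/+ hearts. Those called higher were *Emcn* at 0.505 (adjusted p = 0.0027), *Eng* at 0.48 (adjusted p = 0.00233), *Pecam1* at 0.338 (adjusted p = 0.00612) and *Egfl7* at 0.224 (adjusted p = 0.049). *Cldn5* was called lower, at −0.79 (adjusted p = 0.000701), and *Cdh5* had the same level in both groups (log2 fold change 0.00). Of 10 macrophage markers 8 were called higher and 0 lower, with a median of 0.941 and a summed level of 221.8 to 281.6 against 109.8 to 171.6 CPM. Of 7 tested megakaryocyte and platelet markers 3 were called higher, with a median of 0.708 and a summed level of 30.4 to 43.5 against 15.2 to 26.9 CPM. The endothelial and macrophage markers were above 0 in every heart, and of the megakaryocyte markers *Gp1bb* had too few counts to be tested. The epicardial list gave 0 called higher and 1 lower of 8, with a summed level of 327.0 to 539.7 against 263.1 to 579.7 CPM, and the fibroblast list 3 higher and 0 lower of 8. The smooth muscle and pericyte list gave 0 higher and 2 lower of 8, with a median of −0.214. The cardiomyocyte list gave 0 higher and 1 lower of 10, with a median of −0.15. The part of these cell types in the results for *F3*, *Tfpi*, *Procr*, *Vwf* and *F13a1* was not tested.

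Of 10 genes of the hypoxia response 9 were called higher, with a median of 1.31. Their mean log2 CPM was 4.57 to 5.01 in *Pde2A*+/+ hearts and 4.99, 5.42, 6.26, 6.59 and 6.92 in *Pde2A*-/- replicates A, B, 14, D and 15. *Tfpi* stood in that same order over the 5 *Pde2A*-/- hearts but not over the *Pde2A*+/+ hearts. There replicate 6 had the lowest mean of the list, 4.57, with *Tfpi* at 113.5 CPM. Replicate 7, at 4.77 on the list, had the lowest *Tfpi*, 98.4 CPM. *Plaur* did not follow the order in *Pde2A*-/- hearts, with 7.72 CPM in replicate D against 10.9 CPM in replicate 14. *F3* was lowest in replicates A and B and highest in D. Replicate A lay inside the *Pde2A*+/+ range on the mean of the list and above all *Pde2A*+/+ hearts for 3 of its 10 genes, *Egln3*, *Pfkfb3* and *Ero1l*. The part of the hypoxia response in the members' levels was not tested.

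**Figure D5:**
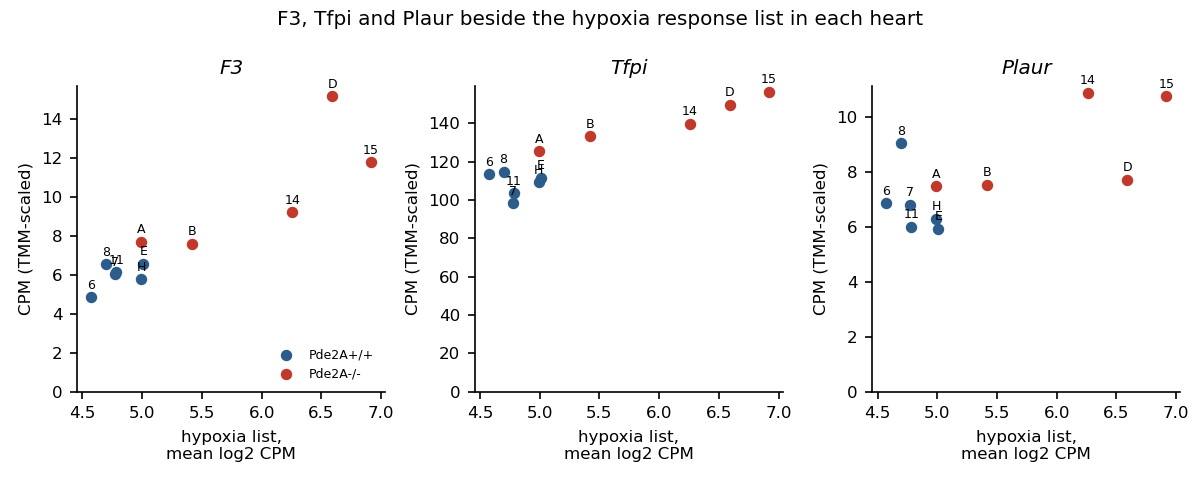
Levels of *F3*, *Tfpi* and *Plaur* in CPM, on axes from 0, against the mean log2 CPM of the 10 genes of the hypoxia response list, with 1 point per heart labelled by its replicate name. *Pde2A*-/- replicate A lies at 4.99 on the horizontal axis, beside the *Pde2A*+/+ hearts at 4.57 to 5.01, and above them for *F3* and *Tfpi*.

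Beyond the genotype difference, the members varied among the hearts of a group. Over the 11 hearts, after the mean of each genotype was removed from the log2 CPM, *Plat* and *Plaur* had a Pearson r of 0.779, *Thbd* and *Procr* of 0.725, *Plat* and *Procr* of 0.655 and *F3* and *Tfpi* of 0.592. *Plau* was lower where *Thbd* was higher, with r of −0.55, and *Plau* and *Plaur* had r of 0.475. These values come from few hearts that share the same libraries and are a description. Among genes that averaged 1 CPM or more, those most like *F3* by this measure were *Zfp36l1* (0.95), *Frs2* (0.947) and *Stard4* (0.944), and those most like *Tfpi* were *Rilpl1* (0.967), *Igf2r* (0.965) and *Degs1* (0.96). For *Procr* they were *Capn6* (0.933), *Tm4sf5* (0.917) and *Sphkap* (0.91), and for *Thbd* *Fam110a* (0.956), *Fmo2* (0.944) and *Dnah1* (0.914). For *Plat* they were *Olfml2a* (0.944), *Bmp4* (0.944) and *Igsf8* (0.918), for *Plaur* *Zfp473* (0.941) and *Ncaph2* (0.933), and for *Plau* *Map3k15* (0.902), *Supt4a* (0.881) and *Gm5781* (0.863).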

How the data were processed

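RNA was sequenced from 11 embryonic hearts, 1 stranded poly(A) library per heart, with single-end reads on an Illumina NextSeq. The authors mapped reads with STAR to GRCm38 (mm10, per the labels) and deposited, per heart, raw counts per gene for 3 strand readings. The STAR version and annotation are not given in the sources used here. The sense counts were used. A read on several genes is in none, and no annotated gene overlaps a member. Genotypes came from the titles.

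Genes whose counts summed to 10 or more were tested with edgeR 4.0.16 in R 4.3.3 (TMM, quasi-likelihood test, Benjamini-Hochberg). Log2 CPM used a prior count of 2. Names, positions and exon lengths came from GENCODE M21, which names 55141 of 55487 identifiers. Ratios were tested with scipy 1.17.1, and plots made with matplotlib 3.10.9. Between 35865537 and 42835382 reads were on genes. The fit was tested on simulated data. Each library is of a separate heart. In every pair of hearts of 1 group the squared difference averaged at least 19.4 times the squared counting error. A second library of the same heart could exceed counting error too, so this does not exclude a repeat.

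The genes named are the 7 members, *Pde2a*, pathway genes, cell markers and, per member, the 3 genes of most like pattern. Single results for 2 genes, and a ratio with 1 of them, are not reported here, and the counts, medians and the adjustment over 4 ratios include them. Members and lists were chosen with earlier results of these data known. The 17 liver-made genes were picked from the pathway lists, and the setting without the 4 hearts with *Alb* at 10 CPM or more was added, after the values were seen. Alternatives were DESeq2 1.42.0, its size factors, library size alone, upper quartile scaling, other filters, both strands, globin genes left out, naming style of the replicates as a covariate, and each heart left out.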

Additional observations from a re-analysis of the deposited data

Results flagged for a closer look

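In 96 groups of 5 or 6 hearts the highest or lowest value was compared with the rest by Dixon's test, by which chance marks about 1 in 20 groups, and 12 values stood apart. Of the members, *Plat* in *Pde2A*+/+ replicate 8 stood at 90.2 CPM against at most 74.5 CPM in the other *Pde2A*+/+ hearts. *Plaur* in the same heart stood at 9.04 CPM against at most 6.85 CPM. Both lie above the other hearts of their group, and without replicate 8 *Plaur* passed the test while *Plat* did not.

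In *Pde2A*-/- replicate D, *Plg* stood at 0.611 CPM, *Serpinf2* at 1.03 CPM, *Vtn* at 0.361 CPM, *F2* at 0.555 CPM, *Fga* at 0.638 CPM, *Fgb* at 0.527 CPM and *Fgg* at 0.333 CPM, each above the other *Pde2A*-/- hearts. This is the *Pde2A*-/- heart with *Alb* at 11.6 CPM. In *Pde2A*+/+ replicate E, where *Alb* stood at 46.6 CPM, *Serpind1* was at 1.71 CPM and *Fgb* at 2.38 CPM. *Plgrkt*, a plasminogen receptor, was at 23.6 CPM in *Pde2A*+/+ replicate 7 against at most 15.8 CPM in the other *Pde2A*+/+ hearts. The part of tissue other than heart in these values was not tested.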

How the results depend on the processing

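*F3* and *Tfpi* kept their direction under all 21 alternatives and their call under 20, and lost it only without the 4 hearts with hepatocyte transcripts (0.642 and 0.35), a setting with fewer hearts in which calls over all genes also dropped, to 482 higher and 50 lower from 2160 and 1372. With each heart left out, *F3* ranged from 0.601 to 0.873, *Tfpi* from 0.341 to 0.421, *Procr* from 0.358 to 0.506, *Plaur* from 0.294 to 0.481, and *Plat* from −0.047 to 0.038. *Procr* lost its call with library size alone (0.412) and without those 4 hearts (0.402). *Plaur* passed with DESeq2 (0.379) and with the naming style of the replicates as a covariate (0.459), where *Plat* was at 0.00. *Thbd* and *Plau* had no call under any of their 21 alternatives. *Plat*, *Plau* and *Thbd* were at −0.085, −0.211 and 0.101 without the 4 hearts with hepatocyte transcripts. Their adjusted p by edgeR there was 0.671, 0.355 and 0.42. Within the letter-named and the number-named hearts the difference of mean log2 CPM, with no test, was 0.638 and 0.825 for *F3*, 0.298 and 0.463 for *Tfpi*, and −0.358 and −0.01 for *Plau*.

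At an adjusted p under 0.01, 889 genes were higher and 142 lower, and DESeq2 called 2354 lower. With each heart left out, 1288 to 2887 were higher and 414 to 2165 lower. Pathway genes called higher numbered 5 without the 4 hearts. Those called lower numbered 1 with DESeq2, its size factors, library size alone, upper quartile scaling, filterByExpr or globin genes left out, 2 with the covariate, and 0 to 2 with each heart left out. The ratio of *F3* to *Tfpi* ranged from 0.227 to 0.434 with each heart left out, and without the 4 hearts it was 0.277 and *Thbd* to *Procr* −0.311. The sign turned for *F8* with upper quartile scaling (−0.006), the covariate (−0.06) and hearts left out (−0.093 to 0.078), for *Hs3st1* with hearts left out (−0.128 to 0.071), for *Nos3* with hearts left out (−0.094 to 0.02) and without the 4 hearts (0.006), and for *S100a10* without the 4 hearts (−0.007). The cause was not tested. No paired analysis was possible because the groups share no replicate name. *F3* rests on 177 to 547 counts per heart and *Tfpi* on 3772 to 5685, so counting error is larger relative to the level for *F3*. Its part in the spread among hearts was not tested.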
